A study of Oryza sativa with 20 samples.

Results

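The step of the rice lamina joint from stage S4 to stage S5, the last stages sampled, was examined in small RNA counts. The comparison used the lamina joint libraries of S4 (n = 2) and of S5 (n = 2), 4 of the 20 libraries of the series, chosen by their sample titles. The other 16 libraries, of lamina joint S1 to S3 and of blade S1 to S5, served to estimate the spread, and the blade S4 and S5 libraries were also set beside the lamina joint. All libraries came from the first complete leaf of Oryza sativa seedlings grown in water, with no treatment, mutation or transgene named. Tissue was cut on days 4, 5, 6, 7 and 9 after germination, and the labels do not pair a day with a stage. No cultivar is named.

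The lamina joint is the hinge where the blade of a grass leaf meets its sheath, and unequal growth of its upper and lower sides bends the blade away from the stem. Auxin and brassinosteroid act on this growth in rice. MicroRNAs are short RNAs that guide the cutting or silencing of matching transcripts, and in plants many of them target transcription factors and hormone signalling components of leaf development. The count files number their entries as tags and give neither miRNA names nor sequences, so tags are described here by number or by abundance rank, and no role can be given to them. For the same reason the tissue labels could not be checked against marker miRNAs. In whole tissue, a lower tag level cannot be told apart from a smaller share of the cells that make it.

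The S4 libraries held 555968 and 332457 counts and the S5 libraries 198599 and 465886. Of 685 listed tags, 484 had a count in some library of the series and 299 passed the filter on low counts and were tested. The tested tags held at least 99.96% of the counts in each of these 4 libraries. Levels are given as normalised CPM, counts brought to a common library size with TMM factors, which set the bulk of the tags level between libraries. The factors were 0.96 and 1.12 at S4 and 0.67 and 0.60 at S5. One count was worth between 1.87 and 7.55 normalised CPM in these 4 libraries. Normalised CPM need not have the same sum in each library. Replicates were correlated across tags with a Spearman coefficient of 0.942 at S4 and 0.899 at S5, and S4 with S5 libraries between 0.876 and 0.912. The median tag differed by 0.47 (log2) between the S4 replicates and by 0.56 between the S5 replicates. The median absolute distance between the S4 and S5 means was 0.46. Stage means average over replicates, so this distance carries less noise than a gap between single libraries and cannot be set directly against it. Both replicate pairs differed by far more than sampling noise, with a chi-square of 70.1 per degree of freedom at S4 and 50.5 at S5, so each library was counted as 1 sample. The second S5 library also stood apart in 5 tags that made up 0.920% of its counts and 0.0488% of those of the first S5 library, and none of these tags was past the threshold.

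The largest shift in the make-up of the libraries was in 1 tag. The most abundant tag held 20.1% and 18.8% of the counts in the S4 libraries and 38.3% and 40.4% in the S5 libraries. The exact 95% binomial interval of each share was at most 0.428 percentage points wide. Its share thus went from 19.4% ± 0.951 (SD, n = 2) to 39.3% ± 1.42 (SD, n = 2), and the stages did not overlap. The tags of ranks 2 to 10 together went from 59.2% and 59.0% to 47.0% and 45.3%. All remaining tags went from 20.7% and 22.3% to 14.7% and 14.4%. The effective number of tags, the exponential of the Shannon entropy, was 19.0 and 18.8 at S4 and 11.4 and 11.8 at S5. For each of these shares 2 libraries against 2 cannot give a two-sided exact permutation p below 0.333, the value each of them had. Once the most abundant tag was set aside, the tags of ranks 2 to 10 held 73.3% ± 1.08 (SD, n = 2) of what was left at S4 and 76.1% ± 0.220 (SD, n = 2) at S5. Read at a common depth of 198599 counts, 320 and 332 tags would be detected in the S4 libraries and 316 and 299 in the S5 libraries. This depth includes the most abundant tag, so fewer counts were left for the other tags at S5. The lower numbers there thus do not show a loss of tags.

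**Figure D1:**
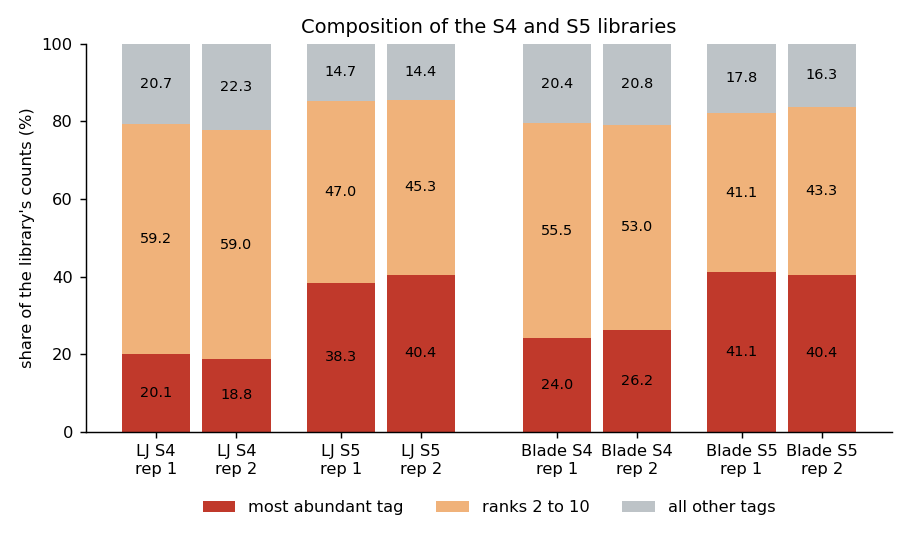
Share of the counts of each S4 and S5 library, in percent, held by the most abundant tag, by the tags of ranks 2 to 10 and by all other tags; ranks are by mean level in the 4 lamina joint (LJ) libraries. The most abundant tag holds 20.1% and 18.8% in the lamina joint at S4 and 38.3% and 40.4% at S5, and it also holds the larger share at S5 in the blade.

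Between S4 and S5 of the lamina joint, 8 of the 299 tags (2.68%) differed by edgeR's quasi-likelihood test with Benjamini-Hochberg adjustment. Of these, 6 (2.01%) rose and 2 (0.669%) fell. All 8 had S4 and S5 libraries that did not overlap, which held for 128 of all tested tags (42.8%), 65 with both S5 libraries above both S4 libraries (21.7%) and 63 below (21.1%). At an unadjusted p below 0.05 there were 41 tags, 29 higher at S5 and 12 lower. The median change of all tested tags was -0.05 (log2). Scaling by total counts moved this median to -0.77 and gave 4 higher and 15 lower tags. Total counts less the most abundant tag gave a median of -0.36, with 6 higher and 7 lower tags. Upper quartile factors gave 4 and 7, and TMM less the most abundant tag 5 and 4. DESeq2 size factors stayed near the TMM result, with 7 and 2 and a median of -0.10. The split between rising and falling tags thus depended on which scaling was used. The distance of each of the 8 tags from the median tag moved by at most 0.11 (log2) between the scalings. A scaling shifts all tags by about the same amount, so this distance could hardly move and does not show that the calls are robust.

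The number of calls also hung on single libraries. It was 1 without the first S4 library, 3 without the second, 1 without the first S5 library and 2 without the second. Without the first or the second lamina joint S1 library it was 17 or 15, and without either blade S5 library it was 5. With the 10 lamina joint libraries alone it was 1, that of tag_135. DESeq2 gave 21, 14 higher and 7 lower, 7 of them among the 8, and gave tag_235 no adjusted p.

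**Figure D2:**
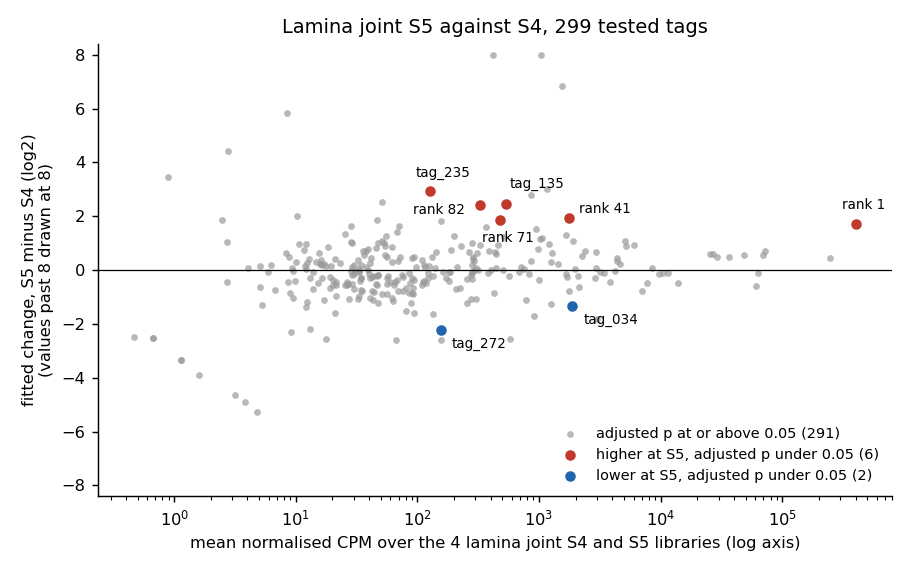
Fitted change from S4 to S5 (log2) against mean level over the 4 lamina joint libraries (normalised CPM, log axis) for the 299 tested tags, with the 8 tags past the threshold coloured and labelled by number or abundance rank. The most abundant tag lies at the right edge with a change of 1.73, and 3 uncalled tags with changes above 6 are among the 5 that were high in the second S5 library.

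The firmest change was that of tag_135, which rose. It had 176 and 154 normalised CPM in the S4 libraries and 951 and 841 in the S5 libraries, from 94, 57, 126 and 235 counts. The S5 libraries lay far above the S4 libraries, and both pairs of replicates were close together. The change was 5.43-fold (95% interval 3.49 to 8.44; 2.44 ± 0.30, log2 with SE; edgeR adjusted p = 0.000271). It passed the threshold in all 34 alternative fits, with adjusted p-values up to 0.0481, and was the tag still called when either of the first libraries of S4 and S5 was left out. Earlier lamina joint means were 40.5 ± 6.01 CPM at S1, 45.8 ± 1.35 at S2 and 92.5 ± 4.35 at S3 (SD, n = 2). Each later stage thus had the higher mean, S1 and S2 lay close together, and the S4 to S5 step was the largest.

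The largest fold among the called tags was that of tag_235, at 7.61-fold (95% interval 3.40 to 17.1; edgeR adjusted p = 0.0155). It had 35.5 and 21.6 normalised CPM at S4 and 325 and 129 at S5, from 19, 8, 43 and 36 counts. The stages were apart, but so were the S5 replicates. Counting error alone gave a ratio of summed counts of 6.44 (exact 95% interval 4.11 to 10.4). Without one of the 4 libraries the change ran from 2.11 to 3.40 (log2) and the edgeR adjusted p from 0.00690 to 0.143. The call held without the second S5 library and was lost without any of the other 3 and with the 10 lamina joint libraries alone (edgeR adjusted p = 0.0958). DESeq2 gave a change of 2.91 ± 0.65 (log2, SE) and no adjusted p for it.

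Both tags that fell did so from levels far below the leading tags. Tag_034 had 3053 and 2331 normalised CPM at S4 and 1065 and 1070 at S5, which made it 2.52-fold lower (95% interval 1.58 to 4.02; edgeR adjusted p = 0.0338). The S5 replicates were nearly equal and well below both S4 libraries. Its mean had been 13370 ± 1461 CPM at S1, 12139 ± 369 at S2 and 8451 ± 2292 at S3 (SD, n = 2), so each stage mean was lower than the one before. Tag_272 had 277 and 240 normalised CPM at S4 and 37.8 and 68.0 at S5, from 148, 89, 5 and 19 counts. It was 4.71-fold lower at S5 (95% interval 2.23 to 9.95; edgeR adjusted p = 0.0322), with no overlap of the stages. Its course before S4 was not steady, with means of 854 ± 62.8, 413 ± 54.7 and 695 ± 68.4 CPM at S1, S2 and S3 (SD, n = 2). In the 4 fits without one of the S4 or S5 libraries, tag_034 kept its call in 1 and tag_272 in 0. Tag_034 also lost it with the 4 libraries alone (edgeR adjusted p = 0.136), with these and a replicate block (edgeR adjusted p = 0.235) and with the 10 lamina joint libraries (edgeR adjusted p = 0.0958), and tag_272 with the last of these (edgeR adjusted p = 0.0714). Neither changed direction in any of the 34 fits.

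The most abundant tag rose as well. Its level was 208836 and 168009 normalised CPM at S4 and 574878 and 672892 at S5, a 3.31-fold rise (95% interval 1.93 to 5.67; edgeR adjusted p = 0.0214). Scaled by total counts, the rise was 2.02-fold (edgeR adjusted p = 0.0399), which is the doubling of its share described above. At S1, S2 and S3 its means were 196582 ± 129092, 140851 ± 50667 and 188550 ± 13104 CPM (SD, n = 2). The S1 libraries alone spanned 105300 to 287864 CPM, which takes in the other means before S5, and both S5 libraries lay above all earlier ones. The call was lost without any one of the 4 libraries, with edgeR adjusted p-values from 0.0916 to 0.174, and without either blade S5 library.

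The other 3 tags that rose had ranks 41, 71 and 82 by abundance. That of rank 82 had 127 and 75.4 normalised CPM at S4 and 529 and 573 at S5, a 5.41-fold rise (95% interval 2.66 to 11.0; edgeR adjusted p = 0.0155). Rank 41 went from 783 and 668 to 3375 and 2180 normalised CPM, or 3.82-fold (95% interval 1.97 to 7.43; edgeR adjusted p = 0.0336). Rank 71 went from 183 and 226 to 770 and 719 normalised CPM, or 3.64-fold (95% interval 1.86 to 7.10; edgeR adjusted p = 0.0367). In all 3 the S5 libraries were clearly above the S4 libraries. The tags of ranks 41 and 71 were the least firm of the 8, each past the threshold in 17 of 34 alternative fits and lost under scaling by total counts, where their folds were 2.37 (edgeR adjusted p = 0.101) and 2.20 (edgeR adjusted p = 0.0997). Rank 82 was called in 29 fits and lost without any one of the 4 libraries.

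The 6 tags that rose reached S5 by unlike courses. For tag_135, tag_235 and the tag of rank 71 the lamina joint mean was higher at each later stage from S1 on. The early part of these courses rests on few counts. Tag_235 had 0 and 0 counts at S1, 0 and 1 at S2 and 2 and 7 at S3. The tag of rank 71 had 3 and 2 counts at S1. At rank 71 the means were 6.51 ± 2.18, 19.6 ± 10.6 and 69.6 ± 22.3 CPM at S1, S2 and S3 (SD, n = 2). The tags of ranks 41 and 82 were instead high at S1, low in the middle stages and high again at S5. At rank 41 the means were 1926 ± 526, 432 ± 8.48 and 464 ± 112 CPM at S1, S2 and S3 (SD, n = 2). Those of rank 82 were 305 ± 155, 65.0 ± 8.25 and 84.5 ± 43.4 CPM (SD, n = 2) at those stages. All 6 had their highest lamina joint mean at S5, and both falling tags had their lowest there. A call between S4 and S5 favours such an extreme, and its share among all tested tags was not counted. In 5 of the 6, both S5 libraries lay above all 8 earlier lamina joint libraries, and in the tag of rank 41 they overlapped with S1. Among all 299 tested tags, 40 had both S5 libraries above all earlier lamina joint libraries and 33 had both below.

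**Figure D3:**
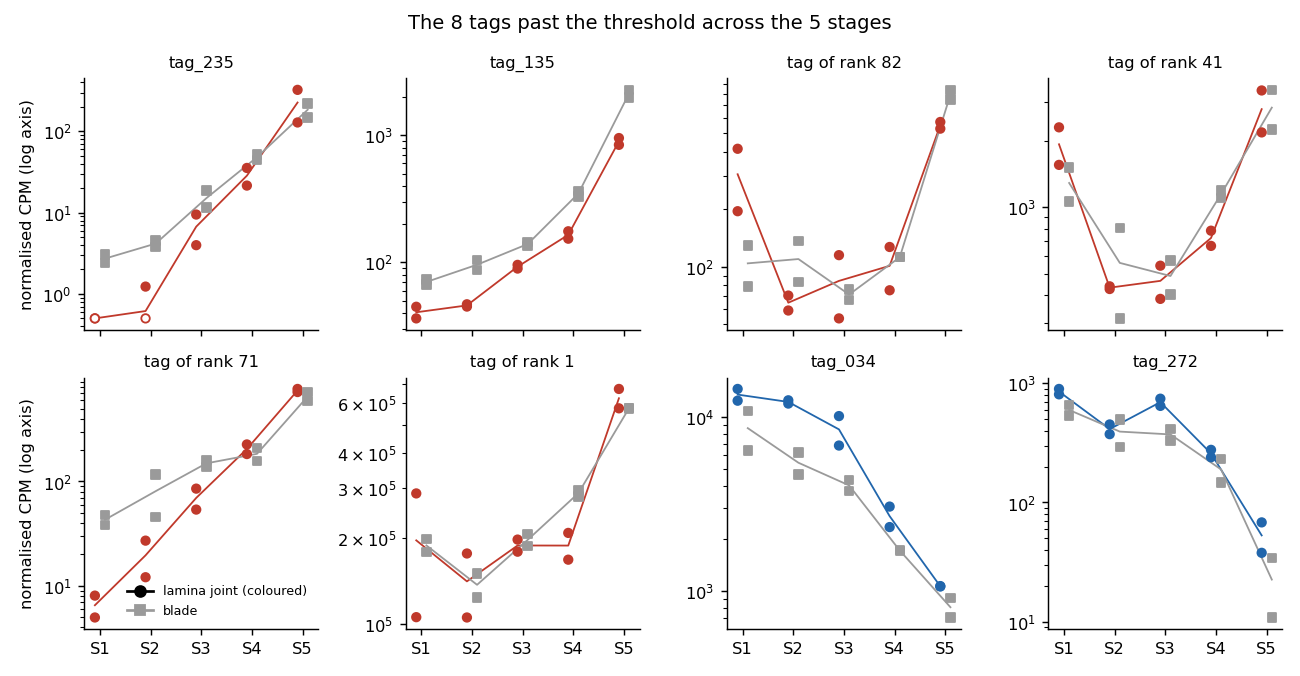
Normalised CPM (log axis) of the 8 tags past the threshold in every library of S1 to S5, with circles for the lamina joint, squares for the blade and lines through the means of 2 libraries; open circles, drawn at 0.5, mark libraries with no count. The first 6 panels hold the rising tags and the last 2, tag_034 and tag_272, the falling ones, and the blade points run the same way between S4 and S5 in each panel. The share of all tested tags for which this holds was not counted.

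The tags that dominate the libraries, apart from the leading one, gave no call. Of the 10 most abundant tags, 1 rose, 0 fell and 9 did not pass the threshold. Rank 2 had 196593 and 220140 normalised CPM at S4 and 305250 and 260516 at S5 (edgeR adjusted p = 0.357). Rank 3 had 54611 and 54448 against 88955 and 89556 (edgeR adjusted p = 0.235), so its replicates were nearly equal within each stage while the stages were apart. Rank 6 had 90644 and 54474 normalised CPM at S4 and 47920 and 49533 at S5, with both S5 libraries below both S4 libraries (edgeR adjusted p = 0.384). Of the 10, 6 had both S5 libraries above both S4 libraries, 1 had both below and 3 overlapped, against 21.7% above and 21.1% below among all tested tags. Ranks used the mean level in these same 4 libraries, and overlap was read under TMM factors only. The comparison therefore cannot show an excess of rising tags among the abundant ones. The fitted changes of ranks 2 to 10 lay between -0.57 and 0.71 (log2), with SEs of 0.21 to 0.45.

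For most of these tags the sign moved with the scaling. With total counts the tags of ranks 2, 3, 4, 7, 8, 9 and 10 changed sign. Rank 6 was lower at S5 under all 6 scalings. It passed the threshold with total counts, at -1.26 ± 0.23 (log2, SE; edgeR adjusted p = 0.00562), and with total counts less the leading tag, at -0.86 ± 0.22 (log2, SE; edgeR adjusted p = 0.0364), and had an edgeR adjusted p of 0.0510 with upper quartile factors. Relative to the median tag, rank 6 lay between -0.53 and -0.50 under all 6 scalings, rank 3 between 0.74 and 0.77 and rank 2 between 0.46 and 0.50. A scaling moves the median along with the tags, so these narrow ranges follow from the measure.

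**Figure D4:**
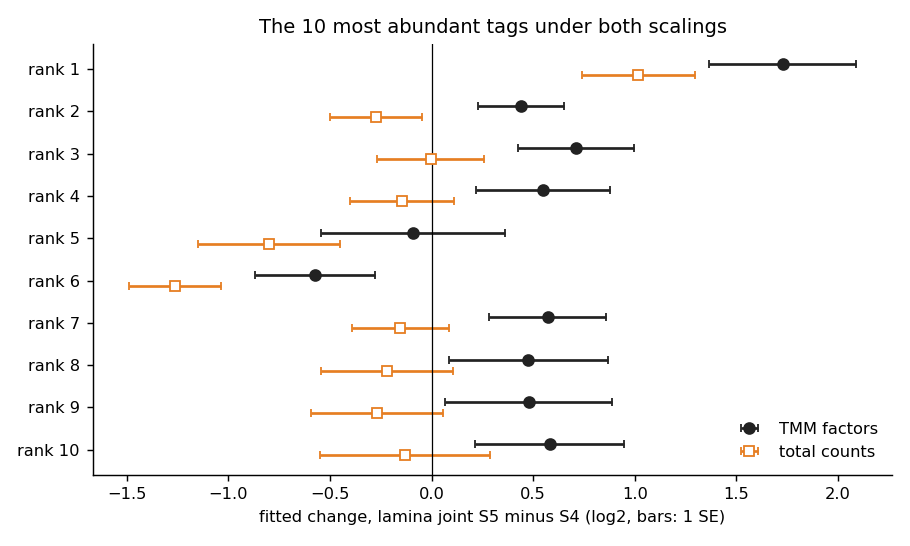
Fitted change from lamina joint S4 to S5 (log2) of the 10 most abundant tags, with bars of 1 SE, under TMM factors (filled) and under total counts (open). Rank 1 is above 0 under both, at 1.73 and 1.02, and 7 of the other 9 lie above 0 with TMM factors and below it with total counts.

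By abundance over the whole series, the calls lay among the better measured tags. Of 48 tags with a mean above 1000 normalised CPM, 2 rose and 1 fell. Of 100 tags between 100 and 1000 CPM, 3 rose and 1 fell, of 139 between 10 and 100 CPM 1 rose, and of 12 below 10 CPM none was called, where the median SE was 2.20 (log2). The median SE fell from 0.73 between 10 and 100 CPM to 0.48 between 100 and 1000 CPM and 0.39 above. A change could be bounded for few tags. The 95% interval lay within 2-fold in both directions for 16 of the 299 tags and within 4-fold for 158. Among the 291 tags that did not pass the threshold, 275 had an interval that reached beyond 2-fold, and 71 had a fitted change of more than 2-fold, so these data do not show that those tags stayed level.

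Few tags were seen at one of the stages alone. Of the 484 tags, 346 had counts at both stages, 42 at S4 alone and 15 at S5 alone, and 81 at neither. The tags seen at S4 alone had at most 8 counts over both S4 libraries, and 12 of them were seen in both. Only 3 tags seen at S5 alone were in both S5 libraries. The highest count of a tag seen at S5 alone was 463, that of tag_138, which had 0 counts in the first S5 library. The S5 libraries held fewer counts in all, so these numbers cannot show a loss of tags.

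To ask whether this step was particular to the lamina joint, it was set beside the same step in the blade, which shares no library with it. In the blade 25 of the 299 tags (8.36%) differed between S4 and S5, 13 higher at S5 (4.35%) and 12 lower (4.01%). Those counts were 20 and 11 with DESeq2 size factors, 18 and 6 with TMM less the leading tag, 9 and 15 with upper quartile factors and 8 and 22 with total counts. The blade count was 9 without the first blade S4 library, 14 without the second, 6 without the first blade S5 library and 16 without the first lamina joint S3 library. All 8 lamina joint tags had a blade change of the same sign. Of the 25 blade tags, including those called in both tissues, 24 had a lamina joint change of the same sign. The share of same signs among all tested tags was not counted, so these counts cannot show more agreement than among tags at large. Both steps were tested in a joint fit with a common spread per tag, so the calls in the tissues are not independent. Of the 6 lamina joint tags that rose, 4 also rose in the blade, which is 4 of the 13 that rose there. Both that fell also fell in the blade, 2 of the 12 there. None was called in opposite directions.

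The fitted blade changes of the 8 tags lay between -3.04 and 2.82 (log2), against -2.24 and 2.93 in the lamina joint. Tag_135 had a mean of 348 ± 24.4 normalised CPM in blade S4 and 2133 ± 206 in blade S5 (SD, n = 2), a 6.12-fold rise (95% interval 3.94 to 9.49; edgeR adjusted p = 0.000112). Tag_272 fell in the blade from 189 ± 59.4 to 22.5 ± 16.5 CPM (SD, n = 2; edgeR adjusted p = 0.00218). The tags that did not pass in the blade were the most abundant one, at 288383 ± 11162 and 575617 ± 2634 CPM (SD, n = 2; edgeR adjusted p = 0.0990), and that of rank 41, at 1148 ± 62.5 and 2822 ± 812 CPM (SD, n = 2; edgeR adjusted p = 0.0756). The leading tag held 25.1% ± 1.54 (SD, n = 2) in blade S4 and 40.8% ± 0.470 (SD, n = 2) in blade S5, against the lamina joint shares of 19.4% and 39.3%. Its difference between the steps was 0.73 (log2, 95% interval -0.34 to 1.80; edgeR adjusted p = 0.920).

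Tested directly, the step differed between the tissues for 0 of the 299 tags by edgeR (0% called). There were 11 tags at an unadjusted p below 0.05, 8 with the higher lamina joint change and 3 with the lower. DESeq2 gave 0, limma-voom and a mean of at least 10 CPM 1 each, and edgeR with no filter on low counts 6, 2 with the higher lamina joint change and 4 with the lower. The median SE of this difference was 0.83 (log2), so only very large differences could have been called. For the 8 lamina joint tags the fitted difference lay between -0.39 and 0.99 (log2), and each 95% interval included 0. That of tag_135, the narrowest, ran from -1.03 to 0.69.

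The tag nearest to a call was tag_116, which did not pass the threshold in the lamina joint (edgeR adjusted p = 0.926) and fell in the blade (edgeR adjusted p = 0.000647). It had 18 and 15 counts in lamina joint S4 and 5 and 7 in lamina joint S5, or 37.0 ± 4.79 and 31.4 ± 8.98 normalised CPM (SD, n = 2), a ratio of 0.800 (exact 95% counting interval 0.376 to 1.59). In the blade it had 36 and 28 counts at S4 and 1 and 1 at S5, a ratio of 0.0262 (exact 95% counting interval 0.00310 to 0.0985). The steps differed by 4.78 ± 0.95 (log2, SE), with an edgeR adjusted p of 0.0507 that ran from 0.0204 to 0.294 over the alternatives. In the other direction tag_106 had the smallest p, with 110 ± 40.6 and 119 ± 8.50 normalised CPM in lamina joint S4 and S5 and 99.2 ± 5.61 and 355 ± 215 in blade S4 and S5 (SD, n = 2; edgeR adjusted p = 0.920). Rank 3 had 54529 ± 115 and 89256 ± 425 CPM in the lamina joint and 54386 ± 5908 and 40188 ± 409 CPM in the blade (SD, n = 2; edgeR adjusted p = 0.920). Its tissue means were close at S4 and further apart at S5.

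**Figure D5:**
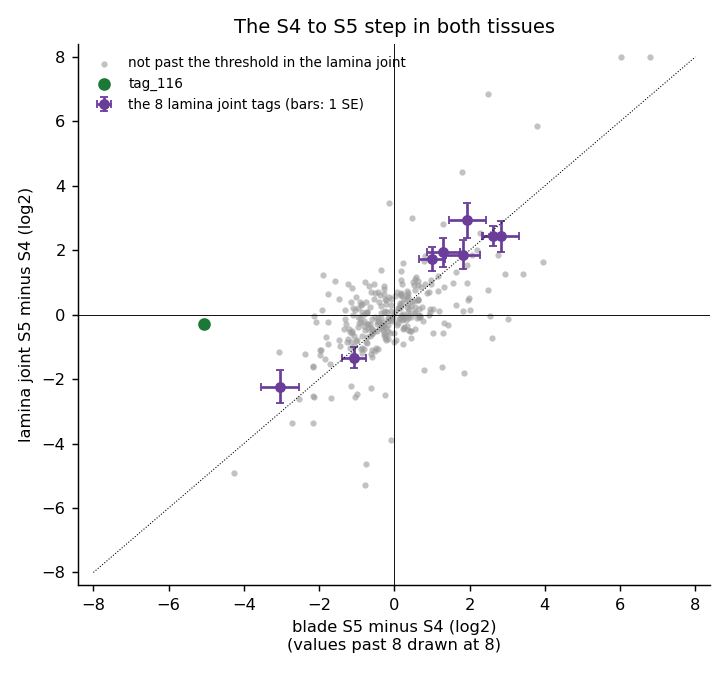
Fitted S4 to S5 change in the lamina joint against that in the blade (log2) for the 299 tested tags, with the 8 lamina joint tags shown with bars of 1 SE and a dotted line of equal change. The 8 tags lie in the quadrants of equal sign near the line, and tag_116 lies far to the left, with a blade change of -5.06 and a lamina joint change of -0.29. The share of all tested tags in these quadrants was not counted.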

How the data were processed

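The authors deposited, for each of 20 libraries, whole-number counts per numbered tag, not normalised. The submitters' processing notes name CASAVA and IRGSP-1.0. The sources used here give no aligner, miRNA annotation or rule for reads matching several miRNAs. Near-identical miRNAs could therefore share or divide counts. Nothing in the labels says that replicates were separate plant batches, so p-values reflect library-to-library spread only, technical spread included.

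Counts were tested with edgeR 4.0.16 in R 4.3.3 (glmQLFit, glmQLFTest), with TMM factors and filterByExpr (minimum count 10, minimum total 15). A mean for each of 10 groups was fitted to all 20 libraries, with 10 residual degrees of freedom. Tests were two-sided, adjusted over 299 tags, with a threshold of 0.05. SEs came from the F statistic, and 95% intervals of folds from the SE and the test's degrees of freedom. Binomial and counting intervals are exact and cover counting error only. Alternatives changed the scaling, filter, tool (DESeq2 1.42.0, limma 3.58.1), replicate block or libraries fitted.

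Named tags were the 2 per direction with the largest fold among called tags averaging 10 CPM or more, the 10 most abundant by rank, and for the difference between steps those with the smallest p. As the files do not pair tags with miRNAs, the remaining called tags are given by rank, and lists of miRNA families could not be used. The comparison and the lists were chosen with earlier results of these data known. In 10 simulations with 60 tags changed, run on 284 to 289 tags, the lamina joint test recovered 4.33% of 2-fold and 30% of 4-fold changes, with 3.74% of its calls false. The test of the difference recovered 0.667% and 2.33%, with 10% of its 10 calls false. All groups had a common mean per tag in these simulations, except for the tags changed at lamina joint S5. The data themselves hold group differences, so the rates apply to the simulated setting only. Figures used matplotlib 3.10.9 in Python 3.11.15.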

Additional observations from a re-analysis of the deposited data

How the results depend on the processing

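Against 8 tags in the lamina joint, 0 for the difference between tissues and 25 in the blade, no filter gave 19, 6 and 41. For the lamina joint, total counts gave 19, total counts without the most abundant tag 13, DESeq2 21, the 4 libraries alone 13, those with a replicate block 17 and the 10 lamina joint libraries 1. For the difference, limma-voom and a mean of at least 10 CPM each gave 1. The 4 blade libraries alone gave 39, with a replicate block 8. Leaving out 1 library at a time gave 1 to 17 tags in the lamina joint, 0 to 1 for the difference (1 without either lamina joint S1 library) and 6 to 29 in the blade; a group left with 1 library was assumed to vary like the others. The cause of these moves was not tested.

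With a replicate block in the fit of all libraries the counts were 8, 0 and 28. Deviations of same-numbered libraries were correlated across tags at -0.089 between lamina joint S4 and S5 and -0.166 between blade S4 and S5, so the numbers do not show pairing; crossed numbers, tried after seeing the data, gave 17 in the 4 blade libraries.

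Without the 5 tags high in the second libraries of lamina joint S1 and S5, also tried after seeing the data, TMM moved the median tag to -0.26 in the lamina joint and the counts were 7 higher and 5 lower there and 22 higher and 6 lower in the blade; all 8 tags kept their calls and direction.

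None of the 8 tags reversed. Among uncalled abundant tags, total counts reversed ranks 2, 3, 4, 7, 8, 9 and 10 to -0.27, -0.0042, -0.15, -0.15, -0.22, -0.27 and -0.13 (log2), and upper quartile factors ranks 2, 8 and 9 to -0.050, -0.045 and -0.048. Leaving out 1 library gave -0.68 to 0.37 for rank 5, -0.021 to 0.90 for rank 8 and -0.42 to 0.97 for rank 9. In lamina joint S4 and S5, the leading tag's share and that of the 10 most abundant tags differed between all counts and tested counts by less than the replicate SD. With 2 libraries per stage, few 2-fold changes could be called.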

Other observations

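A group of 5 tags was high in the second lamina joint library of S5 and in that of S1, and lower in the other 8 lamina joint libraries. They were found by their values, as the 5 tags more than 8-fold higher in the second than in the first library of both stages. Tag_138 had 463 counts in the second S5 library and 443 in the second S1 library, 0 in every other lamina joint library, and in the blade 28 in the second S1 library, 15 and 24 at S5 and 0 elsewhere. Tag_044 had 1123 and 715 counts in the same second lamina joint libraries, 12 in the first S5 library and at most 1 in each other lamina joint library. In the blade it had 68 counts in the second S1 library, 41 and 58 at S5 and at most 1 elsewhere. Another of the 5 had 5716 and 5923 normalised CPM in the second S5 and second S1 libraries, 355 in the first S5 library and 35.5 and 16.2 at S4. Together the 5 tags made up 0.920% of the second S5 library and 1.40% of the second S1 library, against 0.0488% of the first S5 library and 0.0300% and 0.0331% of the S4 libraries. Their fitted rises from S4 to S5 were 1.65 to 11.77 (log2), with edgeR adjusted p-values between 0.107 and 0.559. Without the second S5 library the fitted change was 5.14 ± 3.24 (log2, SE) for tag_044 and 3.66 ± 1.91 for the tag with 355 CPM, and -1.01 and 0.021 for other members, none past the threshold (edgeR adjusted p-values from 0.479 to 1), and tag_138 had no counts left at either stage. What these 2 libraries have in common was not tested.

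Other tags were uneven the other way. At S5, 8 tags were more than 8-fold higher in the second library and 6 in the first, against 0 and 1 at S4. At rank 29 a tag had 7667 and 1557 normalised CPM in the S4 libraries and 2408 and 243 in the S5 libraries, so each stage held a wide gap between replicates and the edgeR adjusted p was 0.655. In the blade it had 900 and 5161 normalised CPM at S5.

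Just beyond the threshold lay 5 tags with an edgeR adjusted p between 0.0561 and 0.0904, 2 higher at S5 and 3 lower. The stages did not overlap in any of the 5, as in 42.8% of all tested tags. One of them, of rank 60, had 157 and 272 normalised CPM at S4 and 1706 and 1285 at S5 (edgeR adjusted p = 0.0561), with a fitted change of 2.80 ± 0.72 (log2, SE).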
